A study of Mus musculus with 30 samples.

Results

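The 37 genes described here encode the chaperones, folding enzymes, translocation and degradation machinery of the endoplasmic reticulum (ER), together with the sensors and transcription factors of the unfolded protein response. They were taken by symbol from a fixed list. No measured value entered the rule, but the list was chosen with earlier results of these data known. All 37 were found among the 55480 named genes of the QuantSeq files and the 34030 named genes of the RNA-seq files. After a filter on low counts, 36 of the 37 were tested among 14380 QuantSeq genes and 37 of 37 among 17013 RNA-seq genes. The member left out of the QuantSeq test, Derl3, had no count in any of the 22 QuantSeq libraries, which allows up to 0.653 to 1.62 CPM (counts scaled to library size) with 3 counts as the limit.

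Proteins that are secreted or carried on the cell surface enter the ER through the Sec61 channel, where Hsp70-type and lectin chaperones and disulfide isomerases fold them. Chains that fail to fold are carried back to the cytosol and destroyed, a process called ER-associated degradation. When unfolded chains accumulate, IRE1 (Ern1), PERK (Eif2ak3) and ATF6 are released and drive Xbp1 splicing, ATF4 translation and ATF6 cleavage, which together raise the transcription of the folding machinery. In lymphocytes this program is best known from plasma cells, and it is also engaged in T cells that are activated and begin to make cytokines.

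The study sorted helper T cells from the spleens of C57BL/6 mice at 8 weeks of age to compare follicular helper (TFH) cells, which help B cells in germinal centres, with type 2 helper (TH2) cells. Libraries of 2 kinds were made, each from 10 ng of total RNA: 22 by 3' QuantSeq, which reads the 3' end of each transcript, and 8 by whole-transcript RNA-seq. In QuantSeq, TFH cells came from mice with the OTII T cell receptor transgene (OTII Tg), sorted as CD4+CD45.2+ PD1+ cells with high, intermediate or low CXCR5 (CXCR5hi, n = 3; CXCR5int, n = 2; CXCR5lo, n = 3). Cells named TFH2 came through the same gates from IL-4BacTg x OTII Tg mice (n = 2 per gate). Bcl6KO cells were CD4+hCD2+ cells of Bcl6f/fCd4cre x OTII Tg mice (n = 2), in which Cre is driven by Cd4 and so acts across the T cell lineage. Il4KO cells were CD4+ cells of Il4-/- x OTII Tg mice (n = 2), with no further sort marker. TH2 cells were CD4+hCD2+ cells of IL-4BacTg x OTII Tg mice (n = 4). All QuantSeq groups therefore share the OTII transgene. In RNA-seq, TFH cells were CXCR5hi PD1+ cells of OTII Tg mice (n = 2), TH2 cells were CD4+hCD2+ cells of IL-4BacTg mice without OTII (n = 2), and naive cells were CD4+CD62L+CD44-CD25- cells of wild-type mice (n = 2). There was also 1 library labelled TFH2 CXCR5hi and 1 labelled TH2, both of IL-4BacTg x OTII Tg mice. No label gives an immunisation, an animal or a batch, so every p-value measures the spread between libraries, which may be technical.

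Libraries were checked before the members were read. QuantSeq libraries held 1834612 to 4442404 counts. RNA-seq libraries held 36048137 to 107398014 counts summed over all transcripts, where transcripts of a gene can share reads. The RNA-seq CPM values rest on smaller totals, with 1 transcript per named gene. All 5 CD4 T cell genes checked had counts in every library. Follicular markers were high in both TFH groups, but the QuantSeq libraries labelled TH2 lacked most defining TH2 transcripts: Il5 and Ccr8 had no count in any of the 4, Il4 had counts in 1 of 4, and only Gata3 at 217 to 328 CPM and Il4ra were plentiful. In the RNA-seq library labelled TFH2 CXCR5hi, Cxcr5 stood at 1.09 CPM and Il4ra at 557 CPM. In the library labelled TH2 with OTII, Cxcr5 stood at 128 CPM and Il4ra at 26.9 CPM. In these genes both go against their labels. So do the sums of 8 TFH genes, at 306 CPM in the library labelled TFH2 and 914 CPM in the one labelled TH2. The sums of 7 TH2 genes, at 1107 and 518 CPM, do as well. Il4, one of those 7, went with the labels, at 3.42 and 124 CPM. No direction is drawn from these 2 libraries. The sex-linked genes Xist and Ddx3y split the groups as well: TFH and Bcl6KO libraries carried Xist, TFH2 and Il4KO libraries carried mainly Ddx3y, and TH2 replicates 1 and 2 carried Xist while replicates 3 and 4 carried Ddx3y. The targeted genes give little check of the knockouts. Il4 stood at 0 and 1.03 CPM in Il4KO and at 0, 0, 13.6 and 0 CPM in TH2, and Bcl6, read at its 3' end, stood at 6.76 and 25.5 CPM in Bcl6KO and at 0.391, 13.3, 2.05 and 5.94 CPM in TH2.

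The promoters show what several members have in common, and they are printed because 3 of the 5 members called against TH2 in QuantSeq (Hspa5, Calr and Dnajc3) carry the ER stress response element (ERSE), the site known to be bound by ATF6 or XBP1 together with NF-Y. RefSeq windows on GRCm38.p6, running from 250 bases before to 50 bases after the start site, were found for 32 of the 37 members. Each is given in the gene's own direction with the ERSE in capitals, and Hsp90b1, which was not called in QuantSeq, is added as the member with 2 copies. Where the element lies on the opposite strand, the capitals read as its reverse complement. Hspa5 encodes BiP, the ER Hsp70 that also holds the stress sensors inactive, Calr encodes the lectin chaperone calreticulin, Dnajc3 encodes P58IPK, a J-domain partner of BiP, and Hsp90b1 encodes GRP94, the ER Hsp90.
Hspa5, chr2:34771840-34772139, plus strand: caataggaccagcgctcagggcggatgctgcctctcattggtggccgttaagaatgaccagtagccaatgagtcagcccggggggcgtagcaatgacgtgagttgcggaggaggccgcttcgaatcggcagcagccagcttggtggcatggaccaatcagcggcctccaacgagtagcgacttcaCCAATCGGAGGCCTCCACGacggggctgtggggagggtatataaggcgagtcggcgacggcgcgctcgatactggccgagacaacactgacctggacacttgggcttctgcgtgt
Calr, chr8:84846882-84847181, minus strand: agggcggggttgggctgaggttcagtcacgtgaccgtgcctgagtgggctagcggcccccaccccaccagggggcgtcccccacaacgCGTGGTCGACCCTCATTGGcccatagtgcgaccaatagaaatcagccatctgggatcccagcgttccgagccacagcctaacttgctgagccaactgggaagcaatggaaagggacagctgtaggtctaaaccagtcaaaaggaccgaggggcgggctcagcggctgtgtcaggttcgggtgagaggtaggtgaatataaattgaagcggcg
Dnajc3, chr14:118937682-118937981, plus strand: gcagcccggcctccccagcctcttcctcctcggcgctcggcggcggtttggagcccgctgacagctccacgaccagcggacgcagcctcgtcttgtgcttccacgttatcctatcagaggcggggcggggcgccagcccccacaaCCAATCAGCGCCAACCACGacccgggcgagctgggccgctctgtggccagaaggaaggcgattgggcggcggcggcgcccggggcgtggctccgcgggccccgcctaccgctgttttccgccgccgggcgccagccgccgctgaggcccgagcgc
Hsp90b1, chr10:86705395-86705694, minus strand: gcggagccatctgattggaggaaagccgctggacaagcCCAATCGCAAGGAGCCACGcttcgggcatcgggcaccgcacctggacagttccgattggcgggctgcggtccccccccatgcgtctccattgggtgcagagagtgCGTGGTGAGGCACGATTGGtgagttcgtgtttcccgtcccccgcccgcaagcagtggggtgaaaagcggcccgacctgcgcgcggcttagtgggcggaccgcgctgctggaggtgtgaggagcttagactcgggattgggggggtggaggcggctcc

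The ERSE was searched as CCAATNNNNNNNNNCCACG on both strands. It occurred in the windows of 9 of 32 members (Hspa5, Calr, Dnajc3, Hsp90b1, Canx, Creld2, Derl3, Pdia6 and Syvn1), against 37 of all 27025 genes with a window, or 0.137%. The shorter ERSE-II, ATTGGNCCACG, occurred in Dnajb11 and Herpud1, against 12 genes or 0.0444% of all. CCACG alone, which is contained in both elements, was in 24 of 32 members and in 35.5% of all genes. TGATGNAAN, a form of the amino acid response element read by ATF4, was in Herpud1, Trib3 and Txndc5 and in 4.5% of all genes. Counted from the start site, the first base of the element lay at -65 in Hspa5, at -162 in Calr, at -105 in Dnajc3, and at -212 and -107 in Hsp90b1, whose window holds 2 copies. Hspa5 and Dnajc3 carry it on the gene's own strand and Calr on the opposite strand. These matches describe letters in a window and say nothing of binding in these cells.

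**Figure D1:**
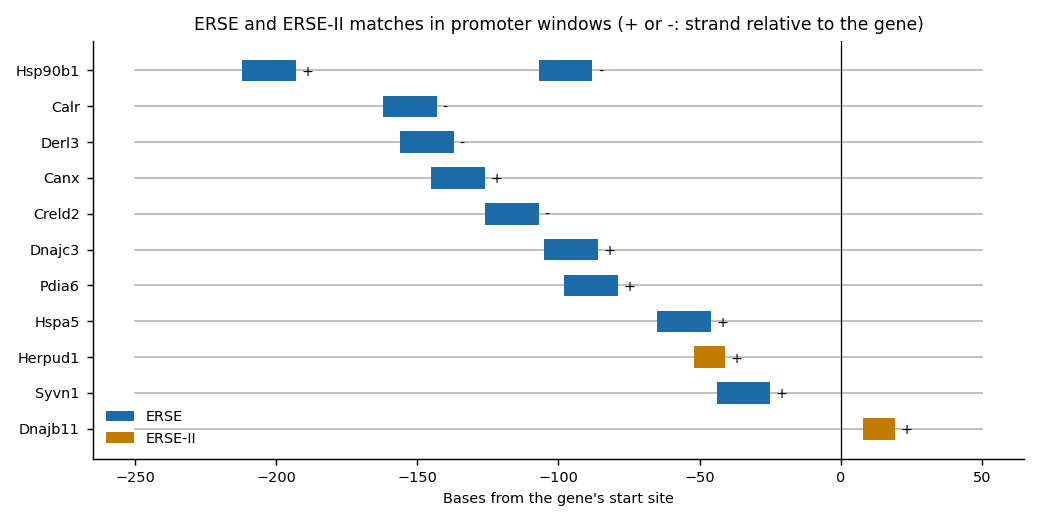
Position of each ERSE (blue) and ERSE-II (orange) match in the promoter windows of the 11 members that hold one, in bases from the start site (vertical line), with + or - for the strand relative to the gene. The matches run from -212 in Hsp90b1 to +8 in Dnajb11, and Hsp90b1 holds 2.

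In QuantSeq the summed level of the members was higher in TFH and TFH2 cells than in TH2 or either knockout. Hspa5 alone made up much of the difference, and the rise was not shared by every role. The summed level of the 37 genes was 4340 to 6516 CPM in the 8 TFH libraries and 4213 to 5315 CPM in the 6 TFH2 libraries. It was 2749 and 2338 CPM in Bcl6KO, 2285 and 2341 CPM in Il4KO, and 2500 to 2957 CPM in TH2. No TFH or TFH2 library overlapped any of the other 8 libraries. Hspa5 supplied 24.9 to 40.1% of that sum in TFH and TFH2 libraries and 6.22 to 17.4% in the others. Without it the sums were 2989 to 4331 CPM in TFH and TFH2, against 1931 to 2656 CPM in the others, still without overlap. By role, the translocon genes summed to 351 to 475 CPM in TFH CXCR5hi, against 468 to 669 CPM in TH2. The degradation genes summed to 222 to 347 CPM, against 137 to 266 CPM, so that both roles overlapped TH2. The sums of the other roles lay above TH2 in that gate without overlap, those of the lectin chaperones only just. The unweighted score, the mean log2 CPM of the 36 tested members, ran from 5.08 to 5.73 in TFH and from 5.34 to 5.58 in TFH2, against 5.27 and 3.96 in Bcl6KO, 5.14 and 4.88 in Il4KO, and 4.73 to 5.33 in TH2. This score overlapped between the groups. Taken over the 23 members with a count in every library it did not, at 6.48 to 6.95 in TFH and TFH2, against 5.86 to 6.43 in the other 8 libraries. The mean over all tested genes ran from 2.73 to 3.39 in the same libraries. In bulk RNA, more cells of a type and more RNA per cell cannot be told apart. TFH and TH2 cells also differ in sort gate and in the IL-4BacTg transgene, and TFH2 and TH2 cells in sort gate. All TFH libraries carried Xist and TFH2 libraries mainly Ddx3y, while the TH2 libraries were split. Cell type, gate, transgene and sex therefore cannot be told apart in these comparisons. The libraries labelled TH2 also lacked most defining TH2 transcripts, as given above.

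**Figure D2:**
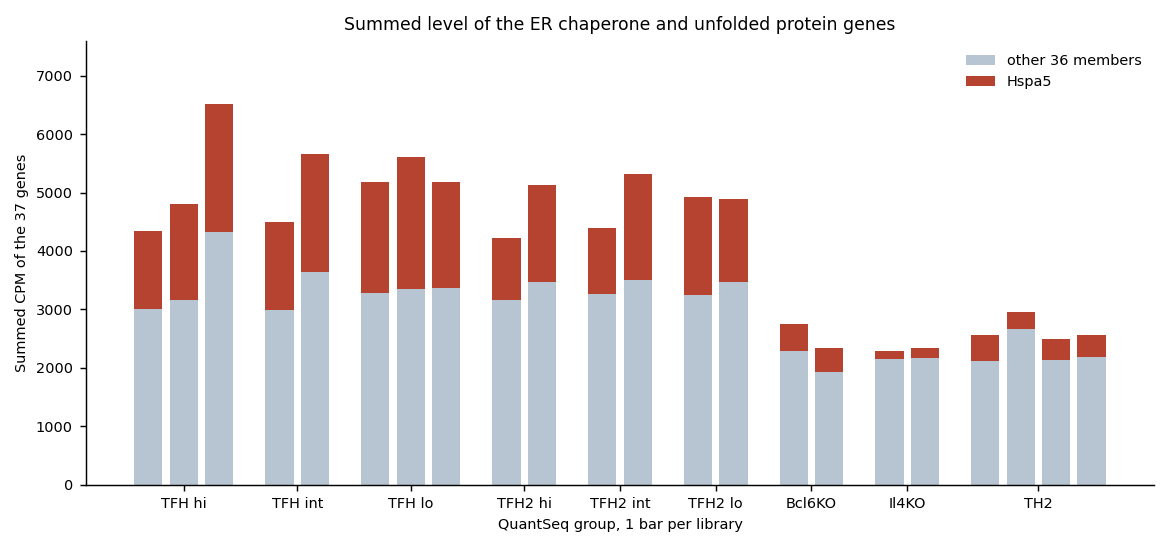
Summed QuantSeq level (CPM) of the 37 genes in each library, with the part contributed by Hspa5 in red and the other 36 members in grey-blue. Every TFH and TFH2 bar reaches at least 4213 CPM, and no Bcl6KO, Il4KO or TH2 bar exceeds 2957 CPM.

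Among single genes, 4 of 36 tested members rose in TFH cells of the CXCR5hi gate compared with TH2 cells and none fell. All 14380 genes tested gave calls in 3.51% of cases, and calls in the higher direction in 2.05% and in the lower in 1.46%, with edgeR's quasi-likelihood test and a Benjamini-Hochberg adjusted p under 0.05. The 4 were Hspa5, Calr, Atf4 and Ppp1r15a. The median log2 ratio was 0.32 over the 36 members and 0.00 over all genes. At an unadjusted p under 0.05 there were 6 higher members and 1 lower. The share of all genes under that unadjusted threshold was not counted, here or below, so nothing is read from such counts.

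Hspa5 stood at 1330, 1634 and 2184 CPM in TFH CXCR5hi, 1500 and 2028 CPM in TFH CXCR5int, and 1899, 2245 and 1804 CPM in TFH CXCR5lo. It stood at 1048 and 1645 CPM in TFH2 CXCR5hi, 1123 and 1806 CPM in TFH2 CXCR5int, and 1675 and 1431 CPM in TFH2 CXCR5lo. The other groups were at 465 and 406 CPM in Bcl6KO, 142 and 170 CPM in Il4KO, and 445, 301, 365 and 367 CPM in TH2. The lowest TFH or TFH2 library was thus well above the highest of the other 8. Averaged over libraries, Hspa5 was at 1828 ± 325 CPM in TFH (SD, n = 8), 4.94 times the TH2 mean, and at 1455 ± 311 CPM in TFH2 (SD, n = 6), 3.93 times the TH2 mean. With edgeR the log2 ratio to TH2 was 2.21 ± 0.21 (SE, adjusted p = 2.15e-15) for TFH CXCR5hi, 2.30 ± 0.19 (adjusted p = 2.78e-19) for the mean of the 3 TFH gates, and 1.97 ± 0.19 (adjusted p = 4.4e-15) for the mean of the 3 TFH2 gates. Hspa5 was the most abundant member in RNA-seq as well, at 327 CPM per kilobase on average over the 8 libraries, ahead of Ppib at 261 and Ppp1r15a at 253.

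Calr, whose product holds glycoproteins and buffers ER calcium, stood at 289, 507 and 815 CPM in TFH CXCR5hi, against 265, 180, 188 and 279 CPM in TH2. The lowest TFH library was barely above the highest TH2 library. Over the 8 TFH libraries it ran from 289 to 827 CPM with a median of 476, and over the 6 TFH2 libraries from 364 to 620 CPM with a median of 481. The log2 ratio to TH2 was 1.24 ± 0.29 (edgeR, adjusted p = 0.00346) in the CXCR5hi gate, 1.15 ± 0.25 (adjusted p = 0.000818) over the TFH gates and 1.07 ± 0.26 (adjusted p = 0.0033) over the TFH2 gates. In the knockouts Calr stood at 243 and 200 CPM in Bcl6KO and at 181 and 139 CPM in Il4KO, within or below the range of TH2.

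Atf4, the transcription factor of the integrated stress response, was at 408, 401 and 597 CPM in TFH CXCR5hi, against 137, 217, 185 and 69.1 CPM in TH2. It ran from 280 to 597 CPM over all TFH libraries and from 251 to 438 CPM over the TFH2 libraries, so that no library of either overlapped TH2. The log2 ratios were 1.62 ± 0.30 (edgeR, adjusted p = 6.16e-05) for TFH CXCR5hi, 1.42 ± 0.26 (adjusted p = 3.25e-05) over the TFH gates and 1.32 ± 0.27 (adjusted p = 0.000228) over the TFH2 gates. Ppp1r15a encodes GADD34, the phosphatase subunit that reverses the block of translation set by the stress kinases. It was at 434, 465 and 815 CPM in TFH CXCR5hi, against 175, 246, 236 and 331 CPM in TH2, and at 432 to 815 CPM over all TFH libraries. TFH2 libraries, at 170 to 458 CPM, overlapped TH2. The log2 ratio was 1.21 ± 0.28 (edgeR, adjusted p = 0.0027) for TFH CXCR5hi and 1.14 ± 0.24 (adjusted p = 0.000471) over the TFH gates, while TFH2 gave 0.42 ± 0.24 (adjusted p = 0.365). The calls of Ppp1r15a and Calr in the CXCR5hi gate rested on the third TFH library: without it their log2 ratios were 0.86 (adjusted p = 0.152) and 0.80 (adjusted p = 0.213), and 2 members were called. Against TH2 replicates 3 and 4 alone, Ppp1r15a was not called either (adjusted p = 0.102 in the CXCR5hi gate and 0.0691 over the TFH gates).

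**Figure D3:**
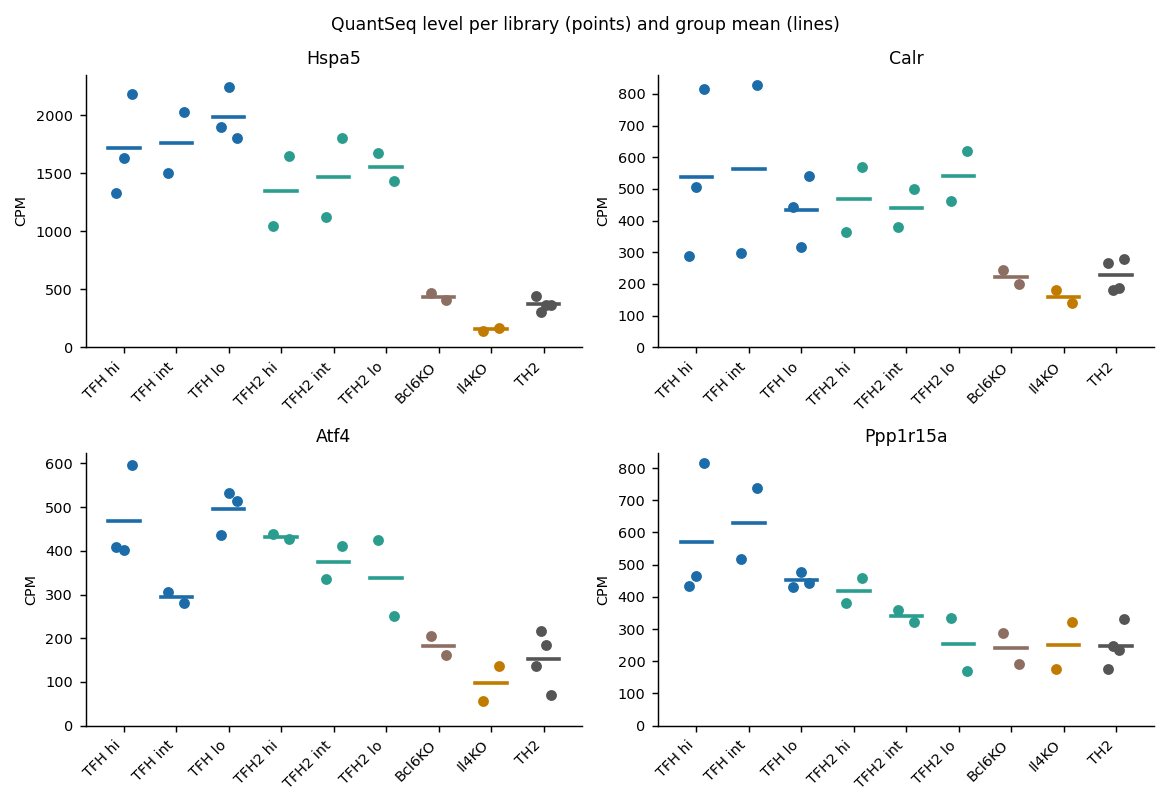
QuantSeq levels (CPM) of Hspa5, Calr, Atf4 and Ppp1r15a, 1 point per library and a line at each group mean, on linear axes from 0. The TFH and TFH2 points of Hspa5 lie between 1048 and 2245 CPM, above all Bcl6KO, Il4KO and TH2 points, of which the highest is 465 CPM, while Ppp1r15a in TFH2 overlaps TH2.

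Over the mean of the TFH gates, 4 of 36 members rose and none fell, against calls in 5.17% of all genes (2.42% higher and 2.75% lower), and they were the 4 members called in the CXCR5hi gate. The members' median log2 ratio was 0.13, and that of all genes -0.10. Over the TFH2 gates 4 of 36 also rose and none fell, against 4.35% of all genes (2.03% higher and 2.32% lower), with a median of 0.38 for the members and -0.13 for all genes. Those 4 were Hspa5, Calr, Atf4 and Dnajc3. Dnajc3 stood at 161 and 183 CPM in TFH2 CXCR5hi, 231 and 171 CPM in TFH2 CXCR5int, and 165 and 177 CPM in TFH2 CXCR5lo, against 93.1, 55.7, 130 and 16.2 CPM in TH2. All 6 TFH2 libraries were above all 4 TH2 libraries, which themselves spread widely. Its log2 ratio was 1.29 ± 0.39 (edgeR, adjusted p = 0.0316) in TFH2 and 0.94 ± 0.37 (adjusted p = 0.126) over the TFH gates, where libraries ran from 80.4 to 224 CPM. The TFH2 call of Dnajc3 was lost without TH2 replicate 2 (adjusted p = 0.0928), TH2 replicate 4 (adjusted p = 0.18) or the first TFH2 CXCR5int library (adjusted p = 0.0751), and also against TH2 replicates 1 and 2 alone (0.143) or 3 and 4 alone (0.137). The comparisons with TH2 all use the same 4 TH2 libraries and are not independent.

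The remaining sensors and transcription factors were low or scattered in QuantSeq. Xbp1 stood at 26.4, 44.6 and 79.7 CPM in TFH CXCR5hi, against 65.3, 25.2, 11.2 and 7.56 CPM in TH2, and its 14 TFH and TFH2 libraries spanned 3.78 to 138 CPM. Its log2 ratio in the CXCR5hi gate was 0.88 ± 0.92 (edgeR, adjusted p = 0.771). Over the 3 TFH gates it was 0.27 ± 0.76, and it was -0.50 against TH2 replicates 1 and 2 alone. Atf6 stood at 44.1, 66.3 and 34.7 CPM in TFH CXCR5hi, against 10.6, 15.6, 8.52 and 8.64 CPM in TH2, without overlap but with wide error (log2 ratio 2.15 ± 1.08, edgeR adjusted p = 0.33). In the other TFH gates it ran from 7.29 to 62.2 CPM, overlapping TH2. Ddit3, which encodes the death-promoting factor CHOP, stood at 19.8, 19.8 and 61.2 CPM in TFH CXCR5hi, against 43.8, 40.5, 53.2 and 40 CPM in TH2 (log2 ratio -0.40 ± 0.93, edgeR adjusted p = 0.972). Xbp1 and Ddit3 overlapped between TFH, TFH2 and TH2. Trib3, a pseudokinase that restrains ATF4, had no count in any of the 6 TFH2 libraries and 4.3, 15.6, 16.4 and 13 CPM in TH2. The absence was not particular to TFH2, since Trib3 had no count in 14 of the 22 QuantSeq libraries. These included every TFH CXCR5hi and every Il4KO library. With 3 counts per library as the floor, it was at least 11.1-fold lower in TFH2 than in TH2, but the difference was not called (adjusted p = 0.0581 with edgeR). These counting limits cover counting error only.

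The 9 Hsp70-type and Hsp90-type chaperones and cofactors had 1 call in TFH (Hspa5) and 2 in TFH2 (Hspa5 and Dnajc3). Hsp90b1, not called, stood at 74 to 198 CPM in TFH, 93.3 to 286 CPM in TFH2 and 55.6 to 132 CPM in TH2, and the log2 ratio over the TFH gates was 0.68 ± 0.34 (edgeR, adjusted p = 0.262). None of the 6 disulfide and proline isomerases, the 5 translocon genes or the 6 tested degradation genes was called in any of the 3 comparisons with TH2. Of the isomerases, Pdia3 stood at 237, 188 and 230 CPM in TFH CXCR5hi, against 133, 180, 103 and 116 CPM in TH2, without overlap (log2 ratio 0.72 ± 0.35, edgeR adjusted p = 0.327). All 5 translocon genes had log2 ratios below 0 in TFH CXCR5hi, between -1.17 for Sec61g and -0.03 for Ssr4. Ppib, which was abundant in RNA-seq, reached at most 15.4 CPM in any QuantSeq library.

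Members with an ERSE or ERSE-II window had a median log2 ratio of 0.93 over the TFH gates (10 tested, 2 called higher), against -0.07 for the members whose window held neither (21 tested, 2 called higher). In TFH2 the medians were 1.11 (3 called higher) and 0.14 (1 called higher). The order was not the same in every comparison. Within TFH2, CXCR5hi against CXCR5lo gave -0.21 with an element and 0.35 with neither. In RNA-seq, the medians with an element and with neither were 0.72 and 0.49 for TFH against naive cells, 0.90 and 1.04 for TH2 against naive cells, and -0.35 (4 higher, 5 lower) and -0.60 (4 higher, 16 lower) for TFH against TH2. No test was made of this split. Across the 22 QuantSeq libraries the members closest to Hspa5 in log2 level were Atf4 (Pearson r = 0.88), Calr (0.86), Ppp1r15a (0.68) and Sdf2l1 (0.57), while Trib3 ran opposite (-0.48). These points share libraries and groups, so the correlations describe the group pattern already given.

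TFH2 cells were compared with TFH cells over the same gates, the groups differing by the IL-4BacTg genotype, and no member was called, against 0.647% of all genes. At an unadjusted p under 0.05, with the share of all genes not counted, there were 1 higher member and 2 lower. DESeq2 called 1 member, Ppp1r15a, which was lower in TFH2. It ran from 170 to 458 CPM in TFH2 with a median of 347, and from 432 to 815 CPM in TFH with a median of 472. The log2 ratio was -0.72 ± 0.21 (edgeR, adjusted p = 0.0702), and the call was made when only the compared groups were fitted (adjusted p = 0.0364) and with DESeq2 (adjusted p = 0.0391). Hspa5 gave -0.32 ± 0.15 (edgeR, adjusted p = 0.476), and the members' median was 0.03. TFH2 libraries carried Ddx3y and TFH libraries Xist, so that genotype and sex cannot be told apart. Markers of other cell types differed in the same comparison: the summed level of 18 B cell and plasma cell genes was 294 to 1362 CPM in TFH2, against 152 to 277 CPM in TFH. The TH2 libraries in turn held 83.2 to 915 CPM of 7 CD8 and NK genes, against 0 to 28.2 CPM in TFH and 1.02 to 57.6 CPM in TFH2. Only 1 to 2 of these 7 genes had counts in each TH2 library. This was not particular to TH2, since the sums were 231 to 393 CPM in Bcl6KO and 218 to 309 CPM in Il4KO. Of the 18 B cell and plasma cell genes, 7 to 10 had counts in each TFH2 library, 4 to 6 in TFH and 1 to 3 in TH2. Their sum in TH2 was 60.5 to 148 CPM. Among those without a count in any QuantSeq library were the plasma cell genes Mzb1 and Tnfrsf17. The summed level of 12 myeloid genes was 366 to 1554 CPM in TFH2, 101 to 276 CPM in TFH and 39.4 to 94.5 CPM in TH2, and that of 5 erythroid genes was 412 to 1586 CPM in TFH2, 39.4 to 339 CPM in TFH and 0 to 39.5 CPM in TH2. The part of these cells in the members' values was not tested. The B cell, myeloid and erythroid sums of TFH2 reached their highest values in libraries of the CXCR5hi gate. Without that gate 3 of 36 members rose in TFH2 against TH2 and none fell. Of all 14380 genes, 232 rose and 198 fell in that fit, where all gates gave 292 and 334. The log2 ratio of Dnajc3 was then 1.32 and not called (adjusted p = 0.0564), against 1.29 with all gates.

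Along the CXCR5 gates no member was called. CXCR5hi against CXCR5lo gave 0 calls in TFH with edgeR, against 0.139% of all genes, and 0 in TFH2, against 0.153%. At an unadjusted p under 0.05, with the share of all genes not counted, there were 0 in TFH, and 1 higher and 2 lower in TFH2. DESeq2 called 0 in each. Hspa5 gave log2 ratios of -0.21 ± 0.23 in TFH and -0.21 ± 0.28 in TFH2. The interaction of gate and genotype gave 0 calls among members, against 0.0139% of all genes, with 0 members at an unadjusted p under 0.05 and 0.00 ± 0.36 for Hspa5.

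Bcl6KO cells, targeted for Bcl6, the lineage factor of TFH cells, were compared with TH2 cells under the same CD4+hCD2+ gate. By label the Bcl6KO mice carried Bcl6f/fCd4cre and the TH2 mice IL-4BacTg, so that loss of Bcl6 and transgene cannot be told apart. Sex was not balanced either: both Bcl6KO libraries carried Xist, while TH2 replicates 3 and 4 carried Ddx3y. No member was called with edgeR, against 0.0209% of all genes (3 genes with edgeR and 124 with DESeq2). With the share of all genes not counted, 1 member was lower at an unadjusted p under 0.05. That member, Pdia4, a disulfide isomerase, stood at 10.9 and 0 CPM in Bcl6KO, against 54.8, 22.4, 91.3 and 32.4 CPM in TH2. Its log2 ratio of -3.16 ± 1.10 had an adjusted p of 0.735 with edgeR and 0.0282 with DESeq2. Hspa5 was at 465 and 406 CPM, above or within the TH2 range of 301 to 445 CPM (log2 ratio 0.24 ± 0.24, edgeR adjusted p = 0.993).

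In Il4KO cells 1 of 36 members changed, against 0.0695% of all genes (0.0626% lower). Hspa5 fell to 142 and 170 CPM in Il4KO, against 445, 301, 365 and 367 CPM in TH2, with no overlap. The log2 ratio was -1.24 ± 0.26 (edgeR, adjusted p = 0.0101). Without the first Il4KO library it was -1.11 (adjusted p = 0.217), and with only the 2 groups in the fit it was -1.26 (adjusted p = 0.863). Atf4 stood at 56.4 and 137 CPM in Il4KO and Calr at 181 and 139 CPM, with log2 ratios to TH2 of -0.65 ± 0.36 and -0.51 ± 0.34, neither called. The Il4KO cells were sorted on CD4 alone and the TH2 cells on CD4 and hCD2, and by label only the TH2 mice carried IL-4BacTg. Both Il4KO libraries carried Ddx3y, while TH2 replicates 1 and 2 carried Xist. Loss of Il4, transgene, gate and sex thus cannot be told apart.

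In RNA-seq, which reads deeper and with less spread, both helper types expressed more of the ER machinery than naive cells, and TH2 cells more so. TFH cells had 26 of 37 members higher and 3 lower than naive cells, against 57.2% of all genes called (29.6% higher and 27.6% lower). With 1 library left out, 25 to 26 members were called in place of 29. TH2 cells had 31 higher and 2 lower than naive cells, against 65.8% of all genes (33.9% higher and 31.9% lower). The 31 higher calls stood in number in every fit tried, while the lower calls numbered 5 without TH2 replicate 2 and 5 with no filter on low counts. Sel1l and Syvn1 were called lower in both of those fits, Edem1 without TH2 replicate 2 (adjusted p = 0.000481), and Dnajc3 with no filter (0.0178) and without TH2 replicate 1 (8.51e-05). The members' median log2 ratio was 0.57 for TFH and 0.96 for TH2, against a median of 0.00 over all genes in both. The score was 6.41 and 6.38 in TFH, 6.79 and 6.75 in TH2, and 5.80 and 5.76 in naive cells, with no overlap between the 3 groups. The summed level was 6678 and 6489 CPM in TFH, 6962 and 6575 CPM in TH2, and 4125 and 4086 CPM in naive cells, so that TFH and TH2 overlapped there. The library labelled TFH2 CXCR5hi had a sum of 4532 CPM and the one labelled TH2 with OTII 7819 CPM. Naive and TH2 libraries carried Xist and TFH libraries Ddx3y, and these groups also differ in transgene and gate, which cannot be told apart.

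All 6 sensors and transcription factors rose in TH2 cells compared with naive cells, and 4 of 6 in TFH cells. The counts by role, here and below, stand beside 33.9% of all genes higher and 31.9% lower in TH2. In TFH the shares were 29.6% and 27.6%. Xbp1 stood at 113 and 117 CPM in TFH and 162 and 155 CPM in TH2, against 28.9 and 26.7 CPM in naive cells (log2 ratios 2.05 ± 0.08 and 2.51 ± 0.08, edgeR adjusted p = 1.69e-09 and 2.04e-10). Atf6, the sensor that becomes a transcription factor when cleaved, was at 82.2 and 80.1 CPM in TFH and 45.9 and 46.8 CPM in TH2, against 9.68 and 8.92 CPM in naive cells (log2 ratios 3.13 and 2.32). Atf4 reached 412 and 393 CPM in TFH and 339 and 322 CPM in TH2, against 223 and 216 CPM in naive cells (log2 ratios 0.88 and 0.59). Ern1, which encodes the IRE1 kinase and nuclease, was at 12.2 and 11.4 CPM in TFH and 68.6 and 74.2 CPM in TH2, against 12 and 11.2 CPM in naive cells. TFH and naive libraries overlapped for Ern1, and TH2 stood apart (log2 ratio 2.62 ± 0.09 to naive, adjusted p = 3.89e-10). Eif2ak3, the PERK gene, behaved likewise, at 39.6 and 38.9 CPM in TFH, 74.6 and 83.2 CPM in TH2, and 40 and 38.7 CPM in naive cells. Ddit3 was at 32.9 and 34.8 CPM in TFH and 103 and 94.8 CPM in TH2, against 26.5 and 24.8 CPM in naive cells (log2 ratios 0.40 and 1.95).

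Trib3 was at 5.45 and 5.04 CPM in TFH and 8.57 and 9.38 CPM in TH2, against 4.6 and 4.7 CPM in naive cells, and was called in TH2 (log2 ratio 0.95). The feedback gene Ppp1r15a moved in opposite directions. It stood at 1198 and 1121 CPM in TFH and 351 and 386 CPM in TH2, against 713 and 734 CPM in naive cells. The log2 ratio to naive cells was 0.68 ± 0.08 in TFH (edgeR, adjusted p = 3.47e-05) and -0.97 ± 0.08 in TH2 (adjusted p = 1.3e-06). The 20 immediate early genes, which respond within minutes to stimulation, were ordered in the same way: their summed level was 17311 to 18101 CPM in TFH, 5827 to 6752 CPM in TH2 and 9833 to 10247 CPM in naive cells. In QuantSeq the same 20 genes summed to 14254 to 17980 CPM in TFH and 13562 to 16993 CPM in TFH2. The sums were 4443 to 4562 CPM in Bcl6KO, 4267 to 4872 CPM in Il4KO and 4600 to 5856 CPM in TH2, the split that Hspa5, Calr and Atf4 also showed. By gene, 7 of 19 tested rose and 1 fell in TFH CXCR5hi against TH2 in QuantSeq, against 2.05% and 1.46% of all genes. Nfkbia, Junb and Nr4a3 led these immediate early genes. The part of this difference in the members' values was not tested.

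Among the Hsp70-type and Hsp90-type chaperones, 6 of 9 rose and 1 fell in TFH compared with naive cells, and 7 rose and 1 fell in TH2. Hspa5 was at 1224 and 1196 CPM in TFH and 929 and 837 CPM in TH2, against 440 and 434 CPM in naive cells (log2 ratios 1.47 ± 0.08 and 1.01 ± 0.08, edgeR adjusted p = 6.71e-08 and 8.71e-07). Hsp90b1 fell to 154 and 149 CPM in TFH, was at 563 and 454 CPM in TH2, and stood at 260 and 261 CPM in naive cells. It was thus below naive in TFH (log2 ratio -0.78) and above it in TH2 (0.96). Sdf2l1, which helps BiP handle folding substrates, had the largest ratio of the chaperone group in TH2, at 16.5 and 17.8 CPM in TFH and 54 and 65.2 CPM in TH2, against 8.75 and 8.52 CPM in naive cells (log2 ratios 0.99 and 2.79). Manf, a secreted BiP cofactor, was at 57 and 57.6 CPM in TFH and 128 and 108 CPM in TH2, against 41.1 and 40.3 CPM in naive cells. Dnajb9, which helps return IRE1 to its resting state, rose in TFH and fell in TH2. Its levels were 41.2 and 38 CPM in TFH, 20.5 and 17.7 CPM in TH2, and 29.7 and 26.8 CPM in naive cells (log2 ratios 0.49 and -0.57). Dnajb11, a J-domain cochaperone of BiP, was at 81.3 and 84 CPM in TFH and 105 and 106 CPM in TH2, against 61.6 and 60.6 CPM in naive cells (log2 ratios 0.43 and 0.79). Creld2, a secreted ER stress marker, was at 27.4 and 27.8 CPM in TFH and 41 and 41.2 CPM in TH2, against 19 and 18.2 CPM in naive cells (log2 ratios 0.57 and 1.14). Both rose in both helper types. Hyou1, an exchange factor for BiP, was at 118 and 118 CPM in TFH and 143 and 162 CPM in TH2, against 111 and 107 CPM in naive cells, and was called in TH2 (log2 ratio 0.48). Dnajc3 was called in neither, at 147 and 139 CPM in TFH, 122 and 103 CPM in TH2, and 126 and 125 CPM in naive cells.

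The lectin chaperones differed from each other in TFH. Calr rose in both, at 508 and 506 CPM in TFH and 496 and 474 CPM in TH2, against 267 and 265 CPM in naive cells (log2 ratios 0.93 ± 0.07 and 0.87 ± 0.07). Canx, its membrane-bound partner, was at 155 and 153 CPM in TFH and 388 and 322 CPM in TH2, against 192 and 187 CPM in naive cells (log2 ratios -0.30 ± 0.09, edgeR adjusted p = 0.0144, and 0.90 ± 0.09). The fall of Canx in TFH was lost when any 1 of the 4 libraries compared was left out (adjusted p = 0.0925 and 0.0634 without naive replicate 1 or 2, 0.0699 and 0.0627 without TFH replicate 1 or 2). All 6 isomerases rose in TH2 by 0.94 to 1.51 on the log2 scale, and 5 of 6 rose in TFH by 0.34 to 0.83. P4hb, the classical protein disulfide isomerase, was at 229 and 232 CPM in TFH and 372 and 373 CPM in TH2, against 133 and 129 CPM in naive cells. Pdia3, which works with the lectin chaperones, was at 368 and 367 CPM in TFH and 445 and 408 CPM in TH2, against 206 and 208 CPM in naive cells. Pdia4 was at 114 and 106 CPM in TFH and 174 and 160 CPM in TH2, against 88 and 85.8 CPM in naive cells. All naive libraries were below both helper types for these isomerases. Pdia6, which also acts on the stress sensors, was at 109 and 104 CPM in TFH and 172 and 160 CPM in TH2, against 65.6 and 64.2 CPM in naive cells. The TFH call of Pdia4 was lost without TFH replicate 1 (adjusted p = 0.0761). Txndc5, another isomerase of the family, was at 46.2 and 47.7 CPM in TFH and 74.9 and 78.7 CPM in TH2, against 29.1 and 29.3 CPM in naive cells. The exception in TFH was Ppib, the ER cyclophilin, at 144 and 145 CPM in TFH and 388 and 350 CPM in TH2, against 152 and 153 CPM in naive cells.

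All 5 translocon genes rose in TH2, by 0.84 to 1.58 on the log2 scale, and 4 of 5 in TFH. Sec61b, a subunit of the channel, was at 56.9 and 49.6 CPM in TFH and 115 and 110 CPM in TH2, against 46.4 and 50.1 CPM in naive cells, and was the one not called in TFH. Ssr4, a subunit of the channel-associated TRAP complex, was at 85 and 83.3 CPM in TFH and 121 and 103 CPM in TH2, against 38.7 and 35.9 CPM in naive cells (log2 ratios 1.18 and 1.58). Sec61a1, the pore-forming subunit, was at 226 and 227 CPM in TFH and 227 and 238 CPM in TH2, against 129 and 131 CPM in naive cells, so that both helper types were above naive cells. Sec61g was at 36.2 and 34.8 CPM in TFH and 62.8 and 49.2 CPM in TH2, against 23.6 and 25.8 CPM in naive cells. Ssr1, another TRAP subunit, was at 93.2 and 92.2 CPM in TFH and 119 and 113 CPM in TH2, against 61.4 and 58.4 CPM in naive cells.

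Of the 7 degradation genes, 5 rose and 1 fell in TFH compared with naive cells, and 4 rose in TH2. Herpud1, which scaffolds the degradation complex, was at 163 and 153 CPM in TFH and 70.6 and 75.9 CPM in TH2, against 57.1 and 56 CPM in naive cells (log2 ratios 1.49 ± 0.07 and 0.37 ± 0.07, edgeR adjusted p = 1.81e-08 and 0.000906). Syvn1, the ubiquitin ligase HRD1, was at 133 and 126 CPM in TFH and 53.6 and 67.9 CPM in TH2, against 68.2 and 66.4 CPM in naive cells. It rose in TFH (log2 ratio 0.94 ± 0.10, adjusted p = 1.05e-05) and overlapped naive cells in TH2. Derl1, a channel component of the degradation machinery, was at 136 and 134 CPM in TFH and 116 and 110 CPM in TH2, against 77.6 and 74.3 CPM in naive cells, and rose in both. Its relative Derl2 was at 24.1 and 23.5 CPM in TFH and 38.1 and 32.4 CPM in TH2, against 24.5 and 23.3 CPM in naive cells, and rose in TH2. Sel1l, the adaptor of HRD1, was at 73.8 and 63.7 CPM in TFH and 50.8 and 53.6 CPM in TH2, against 59.7 and 57 CPM in naive cells. Edem1, a mannosidase-like lectin that picks glycoproteins for degradation, was at 215 and 211 CPM in TFH and 221 and 230 CPM in TH2, against 250 and 240 CPM in naive cells. The TFH calls of Sel1l (log2 ratio 0.24) and Edem1 (-0.20) were small, and the one of Edem1 was lost when any 1 of the 4 libraries was left out (adjusted p from 0.0805 to 0.196). That of Sel1l was lost with DESeq2 (adjusted p = 0.129) and without naive replicate 1 (0.0829), naive replicate 2 (0.177) or TFH replicate 1 (0.451). Derl3, without a count in QuantSeq, was low here too, at 0.884 and 1.03 CPM in TFH and 1.49 and 1.33 CPM in TH2, against 0.418 and 0.396 CPM in naive cells, and its call in TFH was lost with DESeq2 (adjusted p = 0.163) and without naive replicate 1 (0.051), naive replicate 2 (0.0689) or TFH replicate 2 (0.0712).

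**Figure D4:**
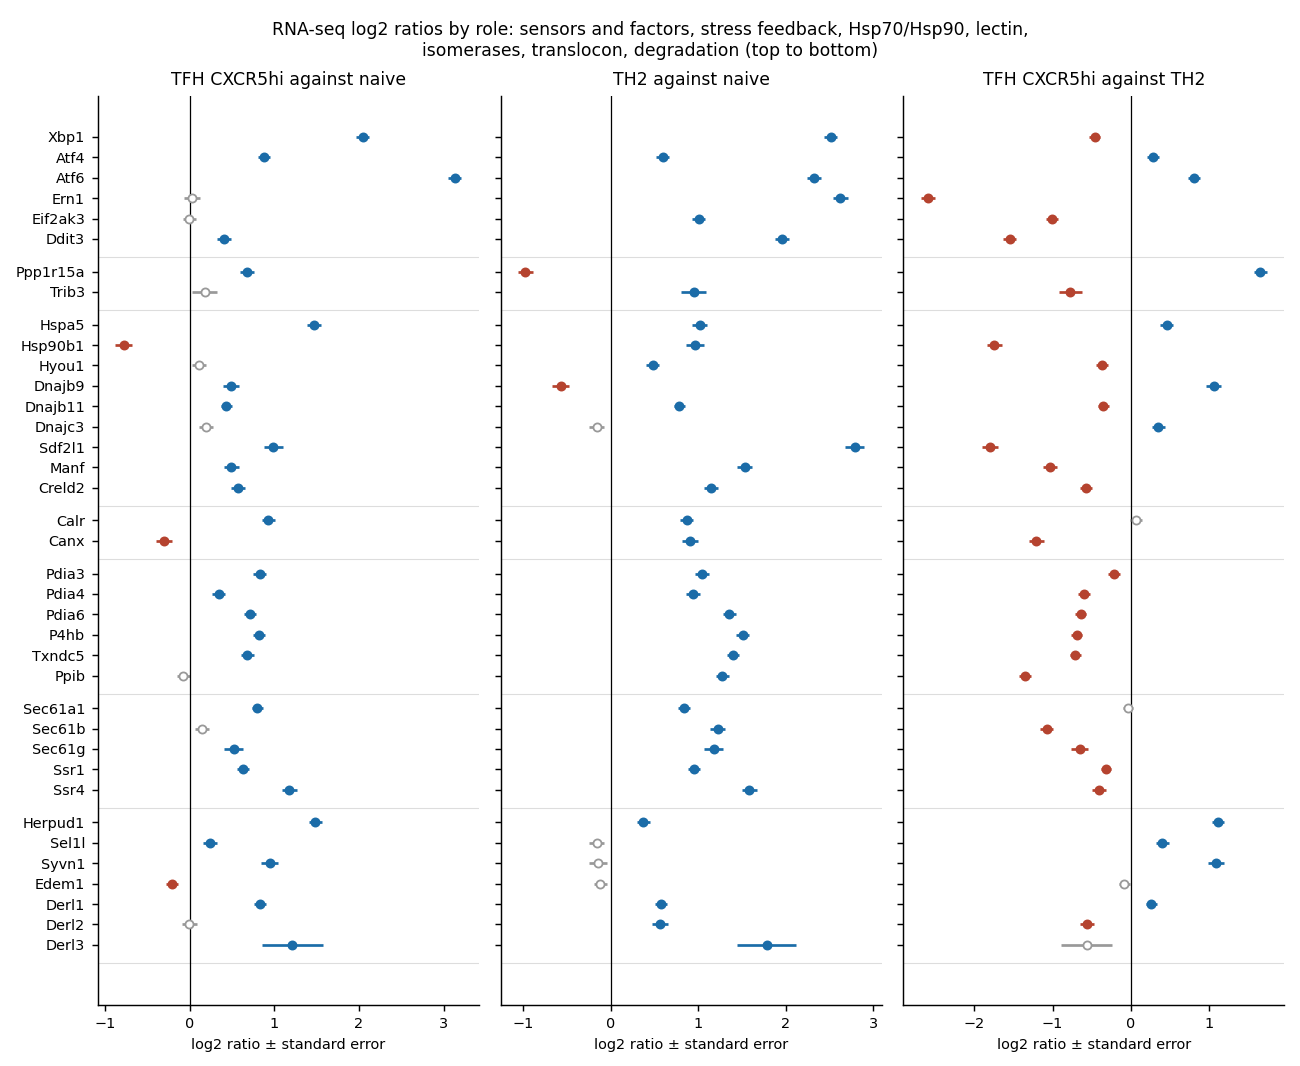
RNA-seq log2 ratios of the 37 genes with standard errors, by role from sensors (top) to degradation genes (bottom), for TFH CXCR5hi against naive, TH2 against naive and TFH CXCR5hi against TH2, each on its own axis. Blue is called higher, red called lower and open grey not called, and in the right panel 10 members are blue and 23 red.

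Set directly against TH2 cells in RNA-seq, TFH cells had 10 of 37 members higher and 23 lower, against 61.8% of all genes called (30.8% higher and 31% lower). The members' median log2 ratio was -0.46 and that of all genes -0.01. The 10 higher members were Atf4, Atf6, Ppp1r15a, Hspa5, Dnajb9, Dnajc3, Herpud1, Sel1l, Syvn1 and Derl1, so that 4 of the 7 degradation genes were among them. Their ratios ran from 0.26 for Derl1 to 1.65 ± 0.09 for Ppp1r15a (edgeR, adjusted p = 1.8e-08). Hspa5 gave 0.46 ± 0.08 (adjusted p = 0.000573), where QuantSeq had 2.21, and Dnajc3 0.35 ± 0.09 (adjusted p = 0.00409). Among the lower members were all 6 isomerases, 4 of 5 translocon genes, 4 of 6 sensors and factors and 6 of 9 Hsp70-type and Hsp90-type chaperones and cofactors. The lowest was Ern1 (-2.60 ± 0.09, adjusted p = 5.14e-10), followed by Sdf2l1 (-1.80), Hsp90b1 (-1.74), Ddit3 (-1.55), Ppib (-1.35) and Canx (-1.21). Calr, called in QuantSeq, gave 0.06 ± 0.07 (adjusted p = 0.475). Sec61a1, Edem1 and Derl3 were not called either. The lower call of Pdia3 (-0.21) was lost when the transcripts of each gene were summed (adjusted p = 0.118), when only the compared groups were fitted (0.0708) and without TFH replicate 1 (0.129) or 2 (0.149). Without the first TFH library, 6 members were higher and 22 lower, with Atf4, Dnajc3, Sel1l and Derl1 no longer called (adjusted p = 0.124, 0.074, 0.0631 and 0.101).

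The 2 library kinds therefore gave the same sign for some members and not for others. Of the 36 members tested in both, 10 were higher and 13 lower in TFH CXCR5hi than in TH2 in both kits, 12 were higher in QuantSeq and lower in RNA-seq, and 1 was the reverse. The 4 members called in QuantSeq were all above 0 in RNA-seq, and 3 of them were called there. The kits differ in the mice too, since the RNA-seq TH2 cells came from mice without OTII. Of 7 TH2 genes checked, all had counts in both RNA-seq TH2 libraries, with Il1rl1 at 337 and 308 CPM. In each QuantSeq TH2 library 3 to 4 of the 7 had counts. Not every TH2 gene set the RNA-seq TH2 cells apart: Il4 stood at 23.2 and 24.2 CPM there and at 51.4 and 52.2 CPM in TFH. Kit, genotype and cells cannot be told apart, and a test of the difference between kits was not made.

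**Figure D5:**
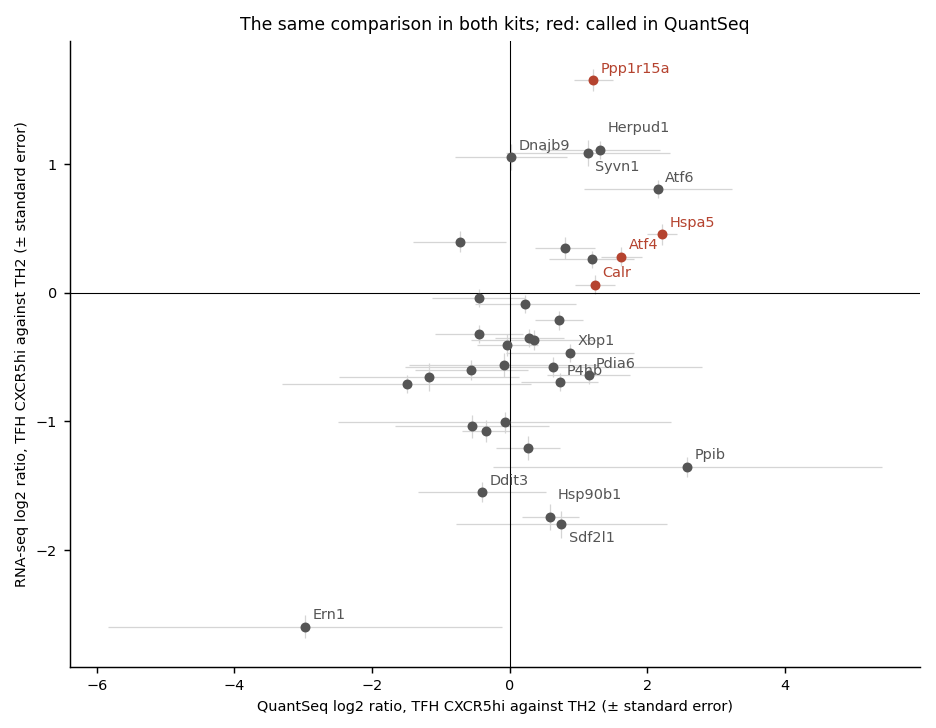
Log2 ratio of TFH CXCR5hi to TH2 in RNA-seq (vertical) against QuantSeq (horizontal) for the tested members, with standard errors; red points were called in QuantSeq, and Trib3 (-8.22 in QuantSeq) is left off the plot. Hspa5, Atf4, Calr and Ppp1r15a lie above 0 on both axes, and Hsp90b1, Sdf2l1 and Ppib lie right of 0 and below it.

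Other genes of the same pathways, listed by function, were read beside the members. Over all genes in QuantSeq, 2.05% rose and 1.46% fell in TFH CXCR5hi against TH2. The shares were 2.42% and 2.75% over the TFH gates, and 2.03% and 2.32% in TFH2. Over all genes in RNA-seq, 29.6% rose and 27.6% fell in TFH against naive cells, and 33.9% and 31.9% in TH2 against naive cells. In TFH against TH2, 30.8% were higher and 31% lower. Of 67 tested genes of secretion and ER quality control outside the member list, 2 rose and none fell in QuantSeq TFH CXCR5hi against TH2, 2 rose and 1 fell over the TFH gates, and 1 rose in TFH2. The called genes included Serp1, which stabilises membrane proteins under stress (log2 ratio 1.52 ± 0.47 in CXCR5hi, edgeR adjusted p = 0.049), and Sec11c, a signal peptidase subunit (1.6 ± 0.39 in TFH2, adjusted p = 0.00382). In RNA-seq, 37 rose and 8 fell in TFH against naive cells, 53 rose and 8 fell in TH2 against naive cells, and 16 were higher and 36 lower in TFH than in TH2. Ero1l, the oxidase that recharges the disulfide isomerases, had the smallest adjusted p of them (log2 ratio -3.36 ± 0.09 in TFH against TH2, adjusted p = 5.73e-11). Of 20 tested genes of the integrated stress response in QuantSeq, 1 rose and 2 fell over the TFH gates, and none was called in TFH2. Slc3a2, the heavy chain of amino acid transporters, rose over the TFH gates (log2 ratio 1.37 ± 0.24, edgeR adjusted p = 1.47e-05). Ddit4, an inhibitor of mTORC1, fell (-1.35 ± 0.30, adjusted p = 0.00106), as did Atf5, a transcription factor related to ATF4 (-3.37 ± 0.99, adjusted p = 0.0282). In RNA-seq 6 of 26 were higher and 15 lower in TFH than in TH2. Of the 16 tested cytosolic chaperones of the heat shock group, 3 rose in TFH and in TFH2 against TH2 and none fell: St13, Hsp90ab1 and Hsp90aa1. In RNA-seq 9 of 17 of that group were higher and 5 lower in TFH than in TH2.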

How the data were processed

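RNA of sorted mouse helper T cells was read in 22 QuantSeq and 8 RNA-seq libraries. The authors deposited raw counts per gene for QuantSeq and per transcript for RNA-seq, with no normalization, as the whole-number values show. Bowtie 0.12.2, STAR 2.7.0c and featureCounts 1.6.0, with the builds mm10, GRCm38.p6 and mm9, are named in the submitters' processing notes; the tool and build behind each file, and the strand setting, are not given in the sources used here. Gene names came from GENCODE M21 and promoter windows from RefSeq (GRCm38.p6). Of 55573 QuantSeq IDs, 93 had no name and held 0.00617% of the counts; in RNA-seq 82946 of 95883 IDs were named and the rest held 14.7% of the counts. These rows stayed out of library sizes and tests. For each RNA-seq gene the transcript holding most counts over all libraries was used, for library sizes as well as tests. Reads shared between transcripts or near-identical genes cannot be resolved.

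Each kit was fitted with edgeR 4.0.16 (R 4.3.3, limma 3.58.1; TMM scaling; default low-count filter with a minimum count of 10 and a minimum total of 15; robust quasi-likelihood test, 2-sided) over all its libraries, with Benjamini-Hochberg adjustment over all genes tested and a threshold of 0.05. SE is the absolute log2 ratio divided by the square root of F, and CPM uses TMM-scaled library sizes. The common biological coefficient of variation was 1.26 in QuantSeq, with 13 residual degrees of freedom, and 0.0879 in RNA-seq, with 3, so QuantSeq detects only large differences. The 2 single RNA-seq libraries entered the fit but add no residual degrees of freedom. The score is the mean log2 CPM with a prior count of 2 and has no test. The fit was tested on simulated counts.

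Values per library are given for every member called in its kit and for Hspa5, Xbp1, Atf4 and Ddit3; of the other gene lists, at most 3 called genes of smallest adjusted p are named. Members, lists and comparisons were chosen with earlier results of these data known. Alternatives were DESeq2 1.42.0, another scaling, no filter, fits of only the groups compared, summed transcripts, each library left out, and TH2 replicates 1 and 2 or 3 and 4 alone. No replicate pair held identical values or agreed within sampling noise.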

Additional observations from a re-analysis of the deposited data

Results flagged for a closer look

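Dixon's test was applied to 39 sets of values in the 4 QuantSeq libraries labelled TH2. For normally spread values chance flags about 1 in 20 of such sets. That rate does not hold for sets with many zeros. Where the other 3 libraries have no count, as for Ppib, any count is flagged, and Derl3, with no count at all, cannot be. A single library stood apart in 7 of the 39 sets, and nothing is read from that number. Ern1 was at 25.0 CPM in TH2 replicate 1, and at 0 to 0.682 CPM in the other 3. Eif2ak3 was at 32.5 CPM in replicate 1, and at 0 to 1.36 CPM in the others. Ppib was at 1.57 CPM in replicate 1 and had no count in the others. Creld2 was at 23.5 CPM in replicate 2, and at 0 to 0.391 CPM in the others. Canx was at 189 CPM in replicate 2, and at 68.9 to 87.6 CPM in the others. The summed level of all members was 2957 CPM in replicate 2, and 2500 to 2568.2 CPM in the others. Dnajb9 was at 1.02 CPM in replicate 3, and at 40.5 to 42.5 CPM in the others. None of these genes was called in a QuantSeq comparison with TH2.

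The isomerases Pdia3, Pdia6 and P4hb lay on opposite sides of TH2 in the 2 library kinds, with every TFH CXCR5hi library on one side of every TH2 library in each kit. Pdia3 had a log2 ratio of TFH CXCR5hi to TH2 of 0.72 in QuantSeq and -0.21 in RNA-seq. Pdia6 had 1.15 in QuantSeq and -0.64 in RNA-seq. P4hb had 0.72 in QuantSeq and -0.69 in RNA-seq. The QuantSeq ratios were not called and the RNA-seq ratios were, though the RNA-seq call of Pdia3 was lost in several other fits, as given above. The share of all genes that lay apart in this way was not counted, so nothing is read from the number of such members. The difference between kits was not tested.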

How the results depend on the processing

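No paired analysis was possible because the labels carry no replicate numbers, animals or batches. Leaving out 1 library gave 2 to 4 called members for TFH CXCR5hi against TH2, 4 to 5 for TFH over the gates, 0 to 1 for TFH2 against TFH, 0 to 2 for Bcl6KO and 0 to 1 for Il4KO. TFH2 against TFH gave 1 call (Ppp1r15a) with DESeq2 and with only the compared groups fitted, and also without the first TFH2 CXCR5lo library (adjusted p = 0.00984) or the first TFH CXCR5hi library (0.0465). Bcl6KO gave 1 with DESeq2 and 2 without Bcl6KO replicate 1 (Pdia4 and Sec61g), where all genes gave 124 and 56 calls in place of 3. Il4KO gave 0 with only the compared groups. The score difference to TH2 was 0.72, 0.62 and 0.67 for TFH CXCR5hi, TFH and TFH2 over members counted in every library, and 0.96, 0.97 and 0.86 as the log2 of the summed CPM, which gave -0.11 for TFH2 against TFH. In RNA-seq the summed form gave 0.68 and 0.72 for TFH and TH2 against naive, and -0.039 for TFH against TH2.

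The values whose direction turned were not called with all libraries and the default filter. Xbp1 in TFH against TH2 ran from -0.040 (without TH2 replicate 4) to 1.16 (without TH2 replicate 1) and was -0.50 with TH2 replicates 1 and 2 alone. Xbp1 in TFH2 against TH2 ran from -0.18 (without the second TFH2 CXCR5hi library) to 1.45 (without TH2 replicate 1), and was -0.20 with TH2 replicates 1 and 2 alone. Xbp1 in TFH2 against TFH ran from -0.45 to 0.58 (without the second or the first TFH2 CXCR5hi library) and was -0.029 without the second TFH2 CXCR5lo library. With TH2 replicates 1 and 2 alone Xbp1 became -0.44 in Bcl6KO and -0.48 in Il4KO, where it ran from -0.023 to 1.15 without TH2 replicate 4 or 1, and was -0.0031 without replicate 3. Without 1 library, Hspa5 in CXCR5hi against CXCR5lo TFH2 ran from -0.55 to 0.088, Ddit3 in Bcl6KO from -0.99 to 0.84, and Syvn1 in RNA-seq TH2 against naive from -0.38 (without TH2 replicate 2, where it was called, adjusted p = 5.94e-05) to 0.016. The cause was not tested.

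Over all genes, DESeq2 called 977 rather than 505 for TFH CXCR5hi against TH2, 1119 rather than 743 for TFH, 1098 rather than 626 for TFH2, 279 rather than 93 for TFH2 against TFH, 124 rather than 3 for Bcl6KO and 91 rather than 10 for Il4KO. Fitting only the compared groups left 0 of 10 for Il4KO and 1 of 3 for Bcl6KO. The fits without the CXCR5hi gate were chosen after seeing the data, and 41 genes rather than 93 were then called for TFH2 against TFH.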
